A study of Mus musculus with 12 samples.

Results

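Mouse pluripotent lines with a mutated Mbd3 gene were set against wild-type (WT) pluripotent lines on Affymetrix gene arrays. Of the 12 arrays of the series, 4 were chosen by genotype and cell state from their labels, 2 of mutated lines and 2 of WT lines. The mutated lines were Mbd3flox/- induced pluripotent stem cells (flox/- iPSC), which carry a floxed and a deleted copy of Mbd3 and a doxycycline (DOX)-inducible transgene of the factors that reprogram somatic cells (Oct4, Sox2, Klf4 and Myc, or OSKM), and Mbd3-/- embryonic stem cells (-/- ESC). The WT lines were Mbd3+/+ iPSC with the same kind of transgene and Mbd3+/+ ESC of the V6.5 line, whose array was reused from an earlier series. All were grown, by their labels, in serum-replacement medium with 2 kinase inhibitors and LIF on irradiated DR4 feeder fibroblasts, whose RNA may have been harvested with the lines. Each line gave 1 array and no label names separate cultures, so a p-value here measures only the spread between these arrays. The other 8 arrays, 3 of embryonic fibroblasts (MEF) and 5 of MEF under DOX, served to describe the same genes in cells that did not choose them. Mutation, line, clone and source cannot be told apart with 2 lines a side, and the flox/- line is not null.

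Mbd3 is a subunit of NuRD, a complex that joins nucleosome remodelling by Chd4 to histone deacetylation by Hdac1 and Hdac2. Mbd3 resembles the methyl-CpG binding proteins but binds methylated DNA poorly in mammals, and NuRD with Mbd3 tunes genes that embryonic stem cells must silence to leave the naive state. Genes of the germ line are silenced in most other cells through CG-rich promoters by DNA methylation and by Polycomb and histone methyltransferase complexes.

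A gene was called separated when the lower value of one side exceeded the higher value of the other. The gap is the distance between those values on the log2 scale, and a gap of at least 1 means that every mutated line differed from every WT line by at least 2-fold. The 4 promoters shown here belong to genes with a gap over 1 and higher signal in both mutated lines, each with a known place in the germ line, and they range from rich to poor in CG, the dinucleotide that DNA methylation acts on. They are the 250 bases before the gene start that the RefSeq promoter table (GRCm38.p6) uses, on the strand of the gene, with each CG in capitals. The Scml2 window lies inside the annotated span of the gene (161082525 to 161258218), so it belongs to an internal start.
Dazl promoter at chr17:50293621-50293870, minus strand: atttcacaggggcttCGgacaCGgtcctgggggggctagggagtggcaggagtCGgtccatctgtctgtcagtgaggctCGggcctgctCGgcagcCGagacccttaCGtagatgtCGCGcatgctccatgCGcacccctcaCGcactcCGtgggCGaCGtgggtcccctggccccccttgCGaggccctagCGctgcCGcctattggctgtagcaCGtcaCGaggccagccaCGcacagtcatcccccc
Asz1 promoter at chr6:18109062-18109311, minus strand: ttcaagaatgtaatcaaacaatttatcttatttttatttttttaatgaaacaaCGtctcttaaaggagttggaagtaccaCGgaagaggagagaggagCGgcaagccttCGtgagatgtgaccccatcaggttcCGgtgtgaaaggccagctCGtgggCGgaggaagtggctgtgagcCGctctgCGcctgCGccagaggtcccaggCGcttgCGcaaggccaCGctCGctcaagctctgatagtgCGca
Scml2 promoter at chrX:161162500-161162749, plus strand: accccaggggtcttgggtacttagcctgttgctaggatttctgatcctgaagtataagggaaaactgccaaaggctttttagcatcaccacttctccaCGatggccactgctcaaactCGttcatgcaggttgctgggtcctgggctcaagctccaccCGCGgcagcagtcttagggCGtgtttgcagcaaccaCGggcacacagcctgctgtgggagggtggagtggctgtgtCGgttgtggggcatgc
Usp26 promoter at chrX:51801234-51801483, minus strand: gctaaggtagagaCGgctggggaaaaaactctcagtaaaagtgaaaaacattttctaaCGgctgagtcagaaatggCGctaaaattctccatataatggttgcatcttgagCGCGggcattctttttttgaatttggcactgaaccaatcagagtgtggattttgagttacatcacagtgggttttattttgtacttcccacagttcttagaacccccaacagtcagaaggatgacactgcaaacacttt
The Dazl window holds 20 CG and the Asz1 window 15, against 7 for Scml2 and 5 for Usp26.

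The labels were first checked against Mbd3 itself, which lies on chromosome 10 (80392539 to 80399531). Its log2 signal was 8.73 in flox/- iPSC and 6.73 in -/- ESC, against 9.21 in WT iPSC and 9.31 in WT ESC. Both mutated lines lay below both WT lines, and the -/- ESC array was the lowest of all 12. In MEF Mbd3 was at 8.92 in flox/- and 8.15 in -/-, against 9.20 in WT, so the -/- MEF array kept a clear signal. The mean was 7.73 ± 1.41 in mutated lines and 9.26 ± 0.08 in WT lines (SD, n = 2 each), a log2 difference of -1.53 with an SE of 0.66 and an adjusted p of 0.542 in limma. By cell type Mbd3 was 5.98-fold lower in -/- ESC than in WT ESC and 1.39-fold lower in flox/- iPSC than in WT iPSC. No source used here places the Mbd3 probes against the deleted stretch.

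The cell state was checked with 8 defining pluripotency markers (Pou5f1, Nanog, Sox2, Zfp42, Esrrb, Dppa5a, Tdgf1 and Utf1). They averaged a log2 signal of 11.92 in flox/- iPSC and 11.95 in -/- ESC, against 11.75 in WT iPSC and 11.85 in WT ESC, and all 8 were above the array median of 6.31 on each array. The 8 fibroblast markers were summed on the linear scale and gave 883 in flox/- iPSC and 1890 in -/- ESC, against 5340 in WT iPSC and 6250 in WT ESC, while the 3 MEF arrays lay between 33100 and 35000. Of these 8 markers 5 were separated, all lower in mutated lines, and 0 the other way. The 6 macrophage markers summed to 210 in flox/- iPSC and 709 in -/- ESC, against 1840 in WT iPSC and 251 in WT ESC. Of 13 defining markers of trophoblast, primitive endoderm and neural cells 6 (Cdx2, Elf5, Hand1, Sox17, Sox7 and Pax6) were below the array median on all 4 arrays, and 5 (Gata6, Gata4, Krt7, Sox1 and Tubb3) were above it on all 4. Gata3 and Nes were above it on some.

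Genes above the array median on at least 1 of the 12 arrays were kept. Over the 13044 genes kept, 0 were called by limma at a Benjamini-Hochberg adjusted p under 0.05 in either direction (0.0% each), and 1312 (10.1%) had an unadjusted p under 0.05. The smallest adjusted p was 0.102, shared by Hprt, AI506816 and Scml2. With 2 arrays a side there are 6 splits, and an exact two-sided permutation test cannot go below a p of 0.333. Among the MEF arrays WT has 1, so they can add only the spread between flox/- MEF and -/- MEF, which differ in genotype. When the 3 MEF arrays were added as groups of their own to estimate the spread, 29 genes were called, 14 higher (0.107%) and 15 lower (0.115%) in mutated lines, and all 29 had a gap of at least 1. Without the flox/- iPSC array 38 genes were called.

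Separation was common. Of the kept genes 5539 (42.5%) were separated, 2421 (18.6%) with the mutated lines above WT and 3118 (23.9%) with the mutated lines below. A gap of at least 1 was found for 181 genes (1.39%), 86 higher (0.659%) and 95 lower (0.728%) in the mutated lines. Just inside that limit were Sfrp2 with a gap of 1.003 and Nrp1 with -1.001, and just outside it were Snx20 with 0.987 and Spata13 with -0.996. No gene among the 181 passed the limma test, so the values that follow describe these arrays.

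The widest gap with higher signal in mutated lines was that of Scml2, an X-linked Polycomb-related protein of the male germ line. Scml2 had a log2 signal of 9.79 in flox/- iPSC and 10.43 in -/- ESC, against 5.73 in WT iPSC and 5.40 in WT ESC. The log2 difference of Scml2 was 4.54 with an SE of 0.28, which is 23.2-fold, and its adjusted p was 0.102 in limma and 0.0302 in the fit with the MEF arrays. Its WT values lay below the array median, so its fold depends on the background signal. Nlrp4c, a member of a family of oocyte NLR proteins, stood at 8.27 in flox/- iPSC and 9.24 in -/- ESC, against 4.44 in WT iPSC and 4.12 in WT ESC. Asz1, which protects the germ line through the piRNA pathway, stood at 8.13 in flox/- iPSC and 10.24 in -/- ESC, against 4.80 in WT iPSC and 3.95 in WT ESC. These 3 genes were chosen for their wide gaps, so their groups lie apart by that choice. For each of them the -/- ESC array was the higher of the mutated pair.

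Usp26, a deubiquitinase of the testis, showed the largest log2 difference of the 12 widest, 4.94 with an SE of 0.83. Its signal was 9.03 in flox/- iPSC and 11.09 in -/- ESC, against 5.83 in WT iPSC and 4.40 in WT ESC. Rhox13, a homeobox gene of the X-linked reproductive cluster, was at 7.89 in flox/- iPSC and 9.45 in -/- ESC, against 5.14 in WT iPSC and 5.01 in WT ESC. St8sia6, a sialyltransferase, had a gap of 2.58, and 1 of its WT values, 6.99 in WT iPSC, lay above the array median. The remaining genes of the 12 widest were 1700018B24Rik, Gm5662, Efhc2, Ccdc152, Zfy1 and 1700080O16Rik, with log2 differences between 3.38 and 4.87. Both WT values lay below the array median for 60 of the 86 higher genes and both below the lower quartile of 4.68 for 19.

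**Figure D1:**
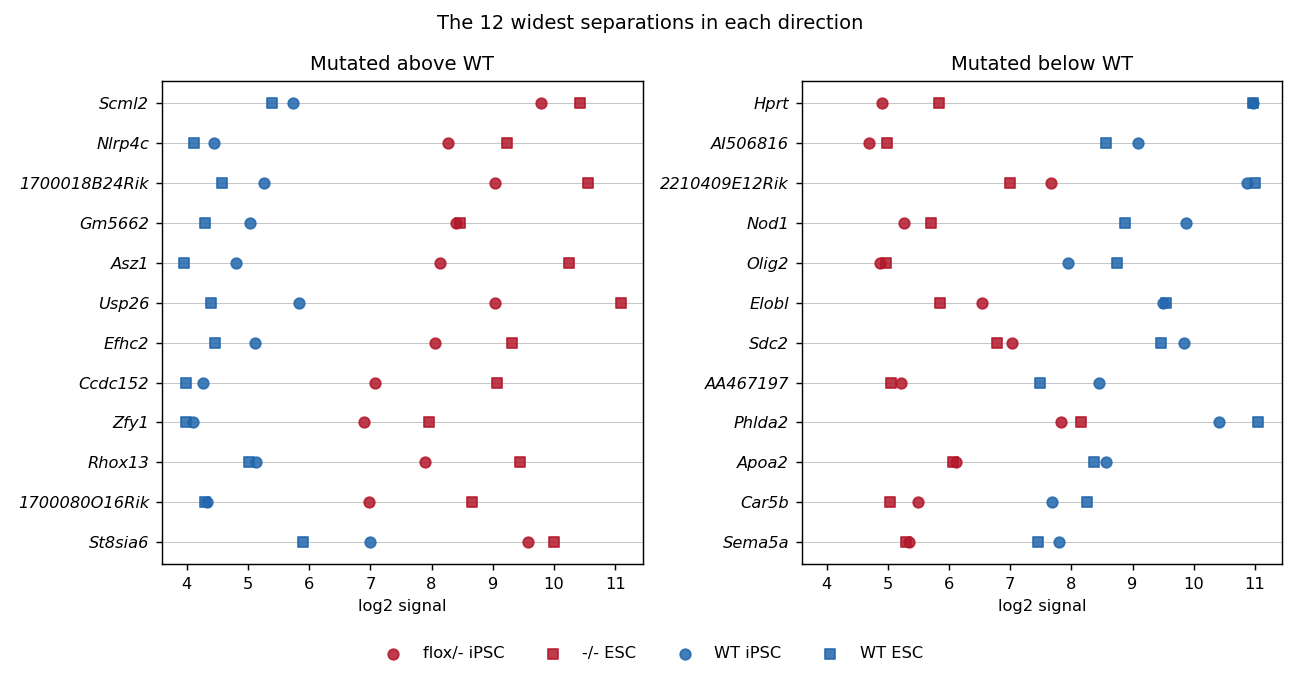
Log2 signal of the 12 genes with the widest gap in each direction, with flox/- iPSC and -/- ESC in red and WT iPSC and WT ESC in blue (circles iPSC, squares ESC, 1 array each). For Hprt the mutated lines sit at 4.90 and 5.84 and both WT lines near 11, and for Scml2 the mutated lines sit at 9.79 and 10.43 and the WT lines below 6.

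Among the gene lists the germline and methylation-sensitive genes stood well above WT, with only the 6 sex-linked genes having a higher median. The lists were chosen with earlier results of these data known, so this rank describes the arrays and is no independent support. Of the 31 measured members of the germline list, without any filter, 21 were separated with the mutated lines above and 1 (Tdrd12) with them below, and the median log2 difference was 1.32. Over all 19938 genes without a filter, 3207 were separated above and 4814 below. With the filter 22 members were kept, 15 above (68.2%, against 18.6% of all kept genes) and 1 below (4.55%, against 23.9%). Their median was 1.66, against -0.03 for all kept genes. Since 6 of these 22 were bright only on some arrays and dropped out when the mean of the 4 arrays was used as the filter, the kept count by itself tells less than the unfiltered one. Then 9 of 16 were above (56.2%, against 19.6% of all genes under that filter) and 1 below. Among the kept members 0 were called in limma and 14 had an unadjusted p under 0.05.

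Dazl, an RNA-binding protein that licenses germ cell fate, reached 10.59 in flox/- iPSC and 11.82 in -/- ESC, against 8.84 in WT iPSC and 6.17 in WT ESC, a log2 difference of 3.70 with an SE of 0.96 and an adjusted p of 0.370 in limma. Most of that difference lay in the ESC pair, where Dazl differed by 5.65 against 1.76 in the iPSC pair. Rpl10l, the germline copy of a ribosomal protein gene, was closer within each side, at 10.26 in flox/- iPSC and 10.25 in -/- ESC, against 8.35 in WT iPSC and 7.92 in WT ESC.

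The list also held components of the synaptonemal complex, the scaffold that pairs meiotic chromosomes. Sycp1 was at 7.10 in flox/- iPSC and 8.06 in -/- ESC, against 5.74 in WT iPSC and 4.96 in WT ESC. Syce1 was at 7.76 in flox/- iPSC and 8.37 in -/- ESC, against 5.78 in WT iPSC and 5.81 in WT ESC. Sycp2 and Sycp3 were separated too, with gaps of 0.73 and 0.21. Smc1b, the meiotic cohesin subunit, had a log2 difference of 1.85, and Hormad1, which marks unpaired meiotic axes, 1.33.

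Genes of transposon defence pointed both ways. Gtsf1, a partner of PIWI proteins, was at 7.57 in flox/- iPSC and 7.76 in -/- ESC, against 5.84 in WT iPSC and 4.87 in WT ESC. Mov10l1, a piRNA helicase, was at 6.94 in flox/- iPSC and 8.91 in -/- ESC, against 5.91 in WT iPSC and 5.55 in WT ESC. Tdrd12, a Tudor protein of the same pathway, went the other way, with 6.40 in flox/- iPSC and 6.90 in -/- ESC, against 9.38 in WT iPSC and 8.99 in WT ESC. Its log2 difference was -2.53 with an SE of 0.25 and an adjusted p of 0.163 in limma, and its groups did not overlap. The groups overlapped for Ddx4, Mael, Stag3, Tex19.1, Piwil2 and Gtsf1l.

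A further set of the 86 had germ cell roles and were not on the list, so they were noticed after their values were seen. Meioc, which holds germ cells in meiotic prophase, had a log2 difference of 2.24 and values of 7.81 in flox/- iPSC and 8.30 in -/- ESC, against 5.99 in WT iPSC and 5.63 in WT ESC. Sohlh2, a transcription factor of early oocytes and spermatogonia, was at 10.37 in flox/- iPSC and 10.76 in -/- ESC, against 9.24 in WT iPSC and 6.27 in WT ESC. WT iPSC thus sat near the mutated lines for Sohlh2, and WT ESC stood apart. Members of multicopy families such as Magea5, Magea6, Xlr, Fthl17f, Usp17lb and the Rhox genes can share hybridisation with close copies, so which copy gave the signal is uncertain.

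The promoters of the 86 higher genes were read where RefSeq held one, which was the case for 69 (80.2%). They had a median of 8 CG in 250 bases, and 26 of 69 (37.7%) held at least 10. Over all 27025 promoters of the table, most of them of genes not kept, the median was 6 and 38.2% held at least 10. For the kept genes 79.3% had a window, under the 80% asked for here, so that comparison is void, but in those windows the median was 16 and 72.9% held at least 10. The E-box CACGTG was found in 11.6% of the 69 windows and in 6.05% of all windows, and TCCCGC, a core of E2F sites searched on both strands, in 14.5% and 16.9%. In the windows of the kept genes, whose comparison is void, the shares were 8.5% for CACGTG and 30.3% for TCCCGC. A match is only a run of letters. Of the 95 lower genes 72.6% had a promoter in the table, so no share is given for them.

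Sex-linked genes contributed to both sides. Of the 6 kept genes of the sex-linked list 5 (83.3%) were separated above and Xist below, with a median of 2.5. Over all kept genes 18.6% were separated above and 23.9% below. Of the 86 higher genes 23 (26.7%) lay on the X chromosome, which held 3.4% of the kept genes, and 7 of the 95 lower genes did. Besides Scml2, Usp26, Rhox13 and Efhc2 these included Nxf3, Tktl1, Magea5, Xlr, Ct55 and Mageb4. Xist, the RNA that coats the inactive X, was among the 7 that were lower, at 7.15 in flox/- iPSC and 7.41 in -/- ESC, against 9.79 in WT iPSC and 8.93 in WT ESC. Its MEF values were 9.68 in flox/-, 5.22 in -/- and 7.51 in WT.

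All 3 higher Y-linked genes, Zfy1, Uba1y and Usp9y, were low in all 3 MEF arrays. Zfy1, a zinc finger protein, was at 6.89 in flox/- iPSC and 7.96 in -/- ESC, against 4.11 in WT iPSC and 3.98 in WT ESC. Eif2s3y, a translation initiation factor gene active in most male cells, showed how the lines were split, with 9.78 in flox/- iPSC and 10.37 in -/- ESC, against 5.02 in WT iPSC and 9.20 in WT ESC. WT iPSC alone lay below the median among the 4 lines, and WT MEF was at 5.73 as well. No sex of the lines was used here. In the ESC pair, where Eif2s3y was high in both lines, Zfy1, Uba1y and Usp9y differed all the same. Uba1y was at 9.28 in -/- ESC and 5.14 in WT ESC, and Usp9y at 8.46 in -/- ESC and 4.06 in WT ESC. The reason was not tested. In the iPSC pair sex and genotype cannot be told apart for Y-linked genes or for Xist. In the ESC pair Xist was at 7.41 in -/- ESC and 8.93 in WT ESC, although Eif2s3y was high in both. The reason for that was not tested either. Uba1y also varied between its 4 probe sets, whose log2 differences ran from 1.3 to 3.83.

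The widest gap with lower signal in mutated lines was that of Hprt, the X-linked purine salvage enzyme used for drug selection in cell culture. Hprt had a log2 signal of 4.90 in flox/- iPSC and 5.84 in -/- ESC, against 10.96 in WT iPSC and 10.97 in WT ESC. The log2 difference was -5.59 with an SE of 0.34, which is 48.2-fold, and the adjusted p was 0.102 in limma. In MEF it was 8.46 in flox/- and 5.33 in -/-, against 10.32 in WT. Of 15 kept genes of purine metabolism Hprt alone had a gap of 1 or more, and the list median was 0.04. Separated above were 3 (20.0%) and below 3 (20.0%), against 18.6% and 23.9% of all kept genes. Within 2 Mb of Hprt 19 genes were kept, and 5 of them had a gap of at least 1 in the other direction, namely Usp26, 1700080O16Rik, Ct55, 1700013H16Rik and Xlr.

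AI506816 was the next widest, with 4.70 in flox/- iPSC and 4.99 in -/- ESC, against 9.09 in WT iPSC and 8.56 in WT ESC. Nod1, a cytosolic sensor of bacterial cell walls, was at 5.26 in flox/- iPSC and 5.70 in -/- ESC, against 9.87 in WT iPSC and 8.88 in WT ESC. Olig2, a transcription factor of oligodendrocyte and motor neuron precursors, was at 4.87 in flox/- iPSC and 4.97 in -/- ESC, against 7.94 in WT iPSC and 8.74 in WT ESC. For these genes the mutated values lay below the array median of 6.31, so the folds have an uncertain lower end.

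Phlda2, an imprinted gene that restrains growth of the placenta, kept a clear signal on each side, 7.83 in flox/- iPSC and 8.16 in -/- ESC, against 10.41 in WT iPSC and 11.04 in WT ESC. Apoa2, an apolipoprotein of high-density lipoprotein, was at 6.11 in flox/- iPSC and 6.07 in -/- ESC, against 8.57 in WT iPSC and 8.37 in WT ESC. Sdc2, a heparan sulfate proteoglycan of the cell surface, was at 7.03 in flox/- iPSC and 6.78 in -/- ESC, against 9.84 in WT iPSC and 9.46 in WT ESC. These 3 genes too were chosen for their wide gaps. Within each side their arrays lay closer to each other than to any array of the other side. Sdc2 had neighbours that went with it: of 5 kept genes within 1 Mb on chromosome 15, Sdc2, Cpq and Sema5a had gaps of at least 1, all lower in the mutated lines. Sdc2, Cpq and Sema5a were also higher in MEF than in the pluripotent lines, by 2.86, 3.74 and 2.39 on the log2 scale. They thus belong to the genes with high signal in MEF described below. Elobl and 2210409E12Rik, also among the 12 widest, start less than 1 Mb apart on chromosome 11 (88964658 and 88972638).

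Genes with high signal in MEF made up most of the lower side. Of the 95 genes 70 (73.7%) were at least 2-fold higher in MEF than in the pluripotent lines, against 18.4% of all kept genes, and 25 were not. The fibroblast and mesenchymal list held 8 of the 95. Of its 38 kept members 28 (73.7%) were separated below and 0 above, against 23.9% and 18.6% of all kept genes. Their median log2 difference was -1.31, and 37 of the 38 were at least 2-fold higher in MEF. Their mean log2 signal was 7.33 in flox/- iPSC and 8.18 in -/- ESC, against 9.16 in WT iPSC and 9.11 in WT ESC, while the MEF arrays lay between 11.49 and 11.68. The lines were grown on feeder fibroblasts, and whether feeder carry-over gave this signal was not tested. Fewer fibroblasts, less RNA per fibroblast and lower signal from the pluripotent cells themselves cannot be told apart in these bulk samples.

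Col1a1, the main chain of type I collagen, was at 7.71 in flox/- iPSC and 8.54 in -/- ESC, against 9.69 in WT iPSC and 10.52 in WT ESC. Postn, a matrix protein of mesenchyme, was at 5.35 in flox/- iPSC and 8.11 in -/- ESC, against 10.71 in WT iPSC and 9.37 in WT ESC. Bgn, a small proteoglycan, was at 5.98 in flox/- iPSC and 9.54 in -/- ESC, against 11.04 in WT iPSC and 11.24 in WT ESC. Across these genes flox/- iPSC was the lowest line, and -/- ESC lay between it and WT. Lum was high in WT iPSC alone (8.91) and Tagln in WT ESC alone (10.71), so the fibroblast signal of the WT lines was not of 1 kind.

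Without the genes that MEF express at least 2-fold more, the count of genes with a gap of at least 1 was 109, 84 above and 25 below. Among the 25 were Hprt, Nod1, 2210409E12Rik, Olig2, Elobl, AA467197, Phlda2, Apoa2, Tdrd12, Xist, Lin28a, Grb10, Sox11 and Ap1m2.

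**Figure D2:**
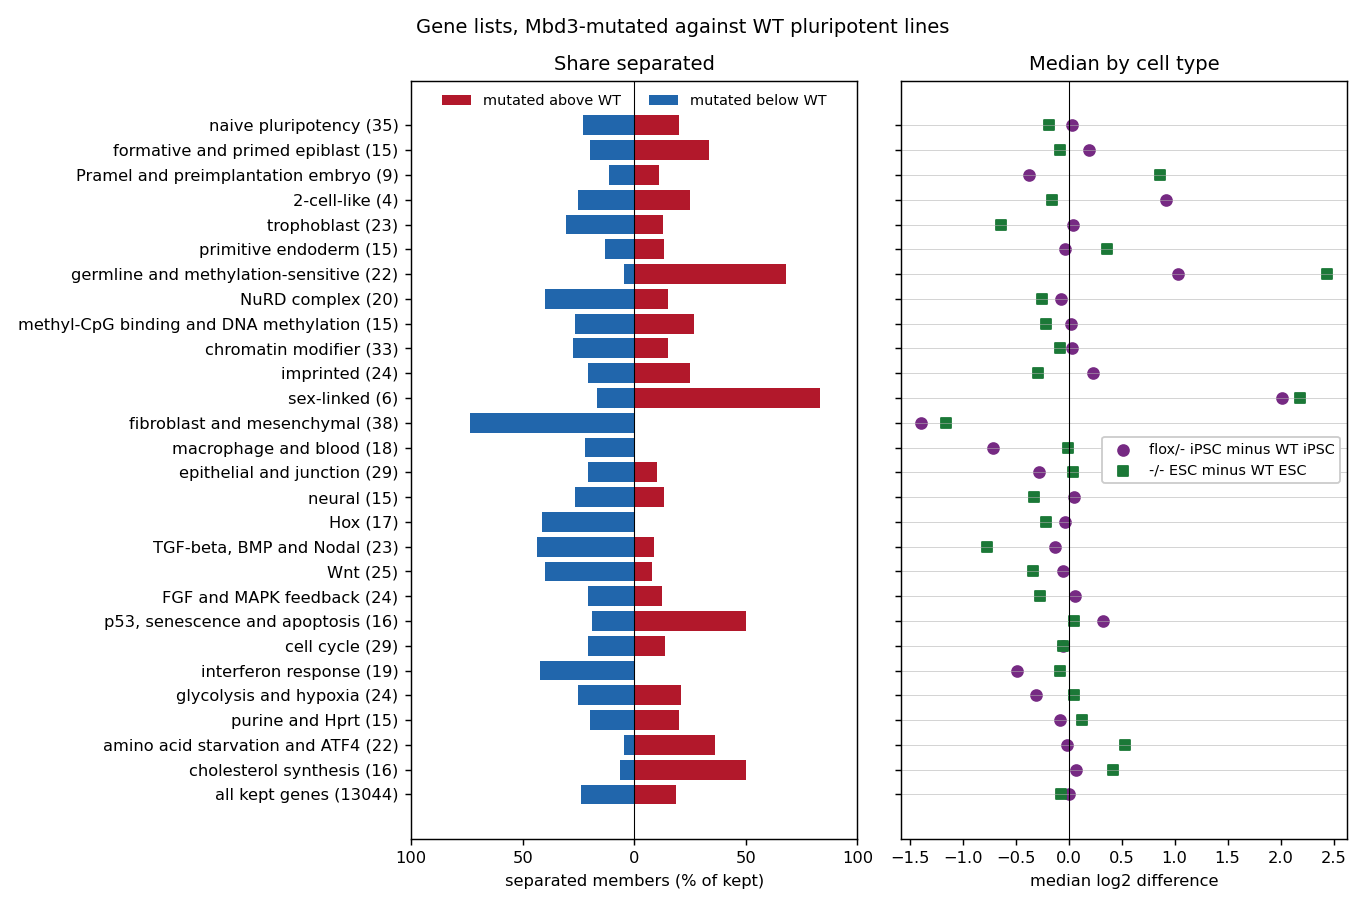
Each list with its number of kept members: on the left the share separated with the mutated lines above (red) or below WT (blue), on the right the median log2 difference in the iPSC pair (circles) and in the ESC pair (squares). Germline genes lie at 1.03 in the iPSC pair and 2.44 in the ESC pair, and fibroblast genes at -1.39 and -1.16.

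The median of the naive pluripotency genes lay near that of all genes. Of 35 naive pluripotency genes 7 were separated above and 8 below, against 18.6% and 23.9% of all genes, and the list median was 0.02. Nanog was at 12.70 in flox/- iPSC and 12.69 in -/- ESC, against 12.55 in WT iPSC and 12.41 in WT ESC. Zfp42, a zinc finger marker of naive cells, was at 10.29 in flox/- iPSC and 10.76 in -/- ESC, against 8.85 in WT iPSC and 9.60 in WT ESC, a log2 difference of 1.30. Lin28a, which blocks let-7 maturation and gains as cells leave the naive state, was at 7.71 in flox/- iPSC and 8.05 in -/- ESC, against 9.17 in WT iPSC and 9.64 in WT ESC. Tfcp2l1 differed by -0.47 and Fbxo15 by 0.45.

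Genes of the next stage gave a mixed picture, with a median of 0.12. Of 15 formative and primed genes 5 (33.3%) were above and 3 (20.0%) below, against 18.6% and 23.9% of all kept genes. Otx2, a regulator of the exit from the naive state, was at 7.81 in flox/- iPSC and 8.99 in -/- ESC, against 7.21 in WT iPSC and 7.13 in WT ESC. Dnmt3b, a de novo DNA methyltransferase, was at 7.48 in flox/- iPSC and 6.70 in -/- ESC, against 8.22 in WT iPSC and 8.45 in WT ESC. Sfrp2, a secreted Wnt modulator, differed by 1.19, and Fst, an activin antagonist, by -1.28. Dnmt3a, the other de novo enzyme, differed by 0.92 in the opposite direction to Dnmt3b, and Uhrf1, the partner of maintenance methylation, by -0.43. Among 15 genes of methyl-CpG binding and DNA methylation 4 (26.7%) were above and 4 (26.7%) below.

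Within NuRD, 3 of 20 genes (15%) were separated above and 8 (40.0%) below, against 18.6% and 23.9% of all kept genes. The median was -0.16 and 0 were called. Mbd3 itself, whose genotype defined the groups, is among the 8. Hdac1, the deacetylase core, was at 11.15 in flox/- iPSC and 10.94 in -/- ESC, against 12.22 in WT iPSC and 11.74 in WT ESC, a log2 difference of -0.94 with an SE of 0.23 and an adjusted p of 0.358 in limma. Hdac2 differed by -0.40 and Sall4, a NuRD partner of pluripotent cells, by -0.37. Mbd2, which forms the alternative NuRD complex, was higher by 0.23 and Cdk2ap1 by 0.37. Of 33 other chromatin modifiers 5 (15.2%) were above and 9 (27.3%) below, with a median of 0.02. The largest differences there were Kdm2b (-0.88), which recruits Polycomb to CG islands, and Bmi1 (0.65), a Polycomb ring protein.

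Imprinted genes were near the shares of all kept genes, with 6 of 24 above (25%, against 18.6%), 5 below (20.8%, against 23.9%) and a median of -0.11. Besides Phlda2, Grb10, a growth-restraining adaptor, was at 9.41 in flox/- iPSC and 9.94 in -/- ESC, against 11.68 in WT iPSC and 10.98 in WT ESC. Mest was at 11.33 in flox/- iPSC and 11.95 in -/- ESC, against 9.91 in WT iPSC and 10.46 in WT ESC, a log2 difference of 1.45. Nnat differed by 1.32. In MEF, Grb10 was at 10.16 in flox/- and 5.80 in -/-, against 12.46 in WT, and Mest was at 10.76 in flox/- and 6.01 in -/-, against 12.32 in WT.

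The shares of the trophoblast, primitive endoderm and neural lists lay not far from those of all kept genes. Above were 13.0%, 13.3% and 13.3%, against 18.6% of all kept genes. Below were 30.4%, 13.3% and 26.7%, against 23.9%. Of 23 trophoblast genes 3 were above and 7 below, with Rhox9, an X-linked placental homeobox gene, at 1.72 and Id2 at -1.47. Of 15 primitive endoderm genes 2 were above, among them Gata6 at 1.18, and 2 below. Of 15 neural genes 2 were above and 4 below, led by Olig2 and by Sox11 at -1.97. Macrophage and blood genes (18) had 0 above and 4 below (22.2%, near the 23.9% of all kept genes). Hox genes (17) had 0 above and 7 below (41.2%). At least 2-fold higher in MEF were 16 of the blood genes and 15 of the Hox genes.

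Among signalling lists the TGF-beta, BMP and Nodal genes leaned low, 10 of 23 below (43.5%, against 23.9% of all kept genes) and 2 above (8.7%, against 18.6%). Their median was -0.46, with -0.13 in the iPSC pair and -0.77 in the ESC pair. Inhba, a subunit of activin, was at 5.82 in flox/- iPSC and 7.67 in -/- ESC, against 9.06 in WT iPSC and 10.99 in WT ESC. Tgfb3, a ligand, was at 4.82 in flox/- iPSC and 6.33 in -/- ESC, against 7.64 in WT iPSC and 10.01 in WT ESC. Both genes are high in MEF, and of the 9 list members that were not at least 2-fold higher there 1 was above and 1 below. Of 25 Wnt genes 10 (40.0%) were below and 2 (8.0%) above, with a median of -0.05 in the iPSC pair and -0.34 in the ESC pair. Of the 14 Wnt genes that were not at least 2-fold higher in MEF 5 were below and 1 above. Fzd7 differed by -1.17 and Axin2, a feedback target of the pathway, by -1.09. For FGF and MAPK feedback genes 3 of 24 (12.5%) were above and 5 (20.8%) below, including Spry2 at -1.19.

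The ATF4, cholesterol and p53 lists held more genes above than below, against 18.6% above and 23.9% below for all kept genes. Of 22 genes of the ATF4 amino acid response 8 (36.4%) were above and 1 below, led by Slc7a11, the cystine carrier, at 8.12 in flox/- iPSC and 9.06 in -/- ESC, against 7.36 in WT iPSC and 6.56 in WT ESC. The ATF4 median was -0.02 in the iPSC pair and 0.53 in the ESC pair, and it was 0.19 without -/- ESC and 0.11 without WT ESC. Of 16 cholesterol synthesis genes 8 (50%) were above and 1 below, with a median of 0.07 in the iPSC pair and 0.42 in the ESC pair, with Stard4 at 1.07 and Cyp51 at 0.66. The p53 list had 8 of 16 (50%) above and 3 below, with Eda2r, a receptor of the TNF family, at 0.98, while Pmaip1, a pro-death BH3 protein, differed by -1.01 and Igfbp3 by -1.39.

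Of 29 cell cycle genes 4 (13.8%) were above and 6 (20.7%) below, against 18.6% and 23.9% of all kept genes. Ccnd2, a G1 cyclin that is also high in MEF, differed by -1.71. Interferon genes leaned low, with 0 above and 8 of 19 below (42.1%, against 23.9% of all kept genes) and a median of -0.39. That median was -0.49 in the iPSC pair and -0.08 in the ESC pair, where all kept genes were at -0.07. At least 2-fold higher in MEF were 9 of the 19, and of the other 10 genes 3 were below and 0 above. The widest difference of the interferon genes was that of B2m, the MHC class I light chain, at -1.18. Of 24 glycolysis and hypoxia genes 5 were above and 6 below, and of 29 epithelial genes 3 were above and 6 below, with Ap1m2, a sorting adaptor, at -1.5. The 2-cell-like list had 1 of 4 kept members above, Usp17lb at 1.35, and 1 below, and without the filter 5 of 10 were above and 2 below. Nlrp14 (2.08), an oocyte gene, was the sole preimplantation gene of 9 above (11.1%), and Ooep (-0.70) the sole one below (11.1%).

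The mutated lines differed among themselves as well as from WT. Across 13044 genes the difference in the iPSC pair and that in the ESC pair, which share no array, correlated with a Pearson r of 0.326 and a Spearman rho of 0.188, as a description across genes that are not independent. At least 2-fold higher in the mutated line were 245 genes of the iPSC pair and 506 of the ESC pair, with 105 in both (42.9% and 20.8% of each set). At least 2-fold lower were 417 and 790, with 162 in both (38.8% and 20.5%), and 21 and 22 genes went in opposite directions. Of the 86 higher genes -/- ESC exceeded flox/- iPSC in 70, by a median of 0.81, while over all genes it did so in 47.3%. Of the 95 lower genes -/- ESC was the lower in 26 and the higher in 69, by a median of 0.34.

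**Figure D3:**
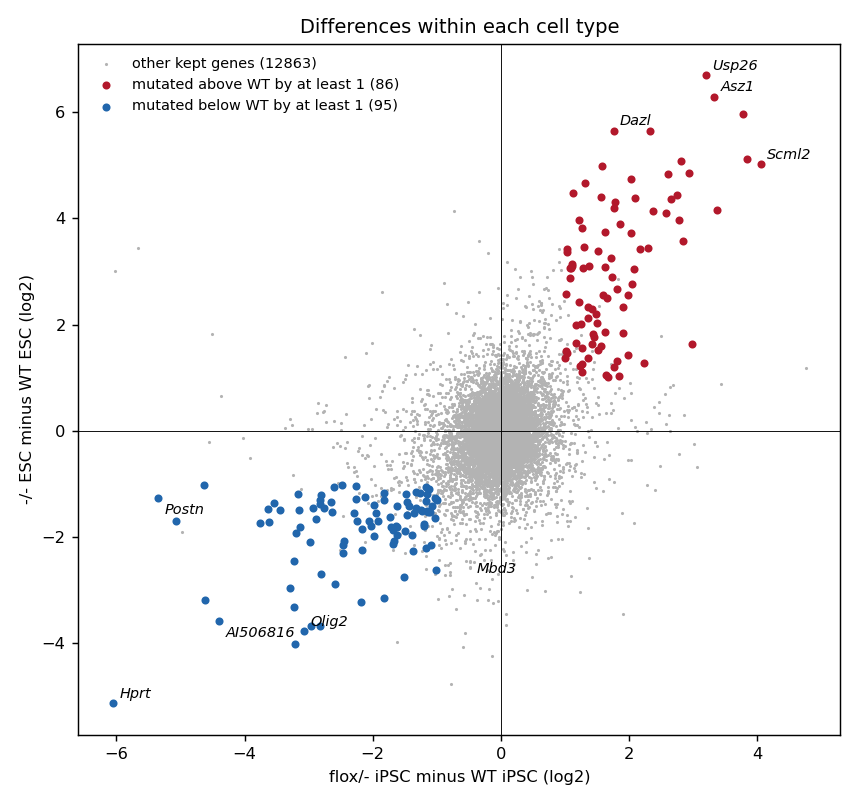
Log2 difference of flox/- iPSC minus WT iPSC (x) and of -/- ESC minus WT ESC (y) for 13044 genes, with the 86 genes above and the 95 below by at least 1 in colour. The colours mark how the genes were chosen, and Mbd3 sits at -0.48 on the x axis and -2.58 on the y axis.

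The 181 genes were then read in the arrays that did not choose them, which carry the OSKM transgene except for the -/- MEF, whose label names none. In MEF, where the 2 mutated arrays were averaged, 59 of the 86 higher genes (68.6%) were higher than in WT, against 55.6% of all genes. Their median was 0.08, against 0.04 for all genes. Of the 95 lower genes 37 (38.9%) were lower, against 44.4% of all genes. Both mutated MEF arrays lay beyond WT MEF by at least 1 in the same direction for 4 of the 86 (Cyp4a12b, Hhip, Sfrp2 and Slc25a31; 4.65%, against 1.57% of all genes) and for 6 of the 95 (Hprt, AI506816, Elobl, Grb10, 2410018L13Rik and Sox11; 6.32%, against 1.53%).

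At day 4 of DOX 67 of the 86 (77.9%) were higher in flox/- than in WT cells, against 57.2% of all genes. Their median was only 0.13, against 0.08 for all genes. Of the 95 lower genes 85 (89.5%) were lower, against 42.8%. At day 8 77 of the 86 (89.5%) were higher, against 46.4%, with a median of 1.03, against -0.06 for all genes. Of the 95 lower genes 81 (85.3%) were lower, against 53.5%. The state of the cells differed at day 8, since the 8 pluripotency markers averaged 11.94 in flox/- and 6.4 in WT cells. Set against WT day 11, whose markers averaged 11.07, 77 of the 86 (89.5%) were higher, against 47.6% of all genes, and 91 of the 95 (95.8%) were lower, against 52.4%. Of the 86 higher genes 64 (74.4%) were at least 2-fold lower in MEF than in the pluripotent lines, against 1958 of the 13044 kept genes. No background used here was matched for that. Whether the 86 exceeded other genes low in MEF at day 8, beyond the difference in cell state, was not tested. The fibroblast signal moved with the lower genes: the mean log2 signal of that list was 9.13 in flox/- and 10.82 in WT cells at day 4, and 7.18 in flox/- day 8 cells, against 8.91 in WT day 8 and 9.83 in WT day 11 cells. Of the 25 lower genes that were not at least 2-fold higher in MEF, 15 (60%) were lower at day 4, against 33.3% of all such genes. At day 8 15 (60%) were lower, against 46.4%, and against WT day 11 21 (84.0%) were lower, against 43.9%. Of the 84 such higher genes 67 (79.8%) were higher at day 4, against 66.7%, and 75 (89.3%) at day 8, against 53.5%. Their median at day 4 was 0.14, against 0.16 for all such genes, so their size there was that of the background. At day 8 it was 0.94, against 0.06. The WT day 8 array has a source label of 4 days and a title of 8 days, and the title was followed. Dazl reached 10.36 in flox/- day 8 cells, against 4.55 in WT day 8 and 6.63 in WT day 11 cells, while Asz1 stayed near background there at 4.60.

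**Figure D4:**
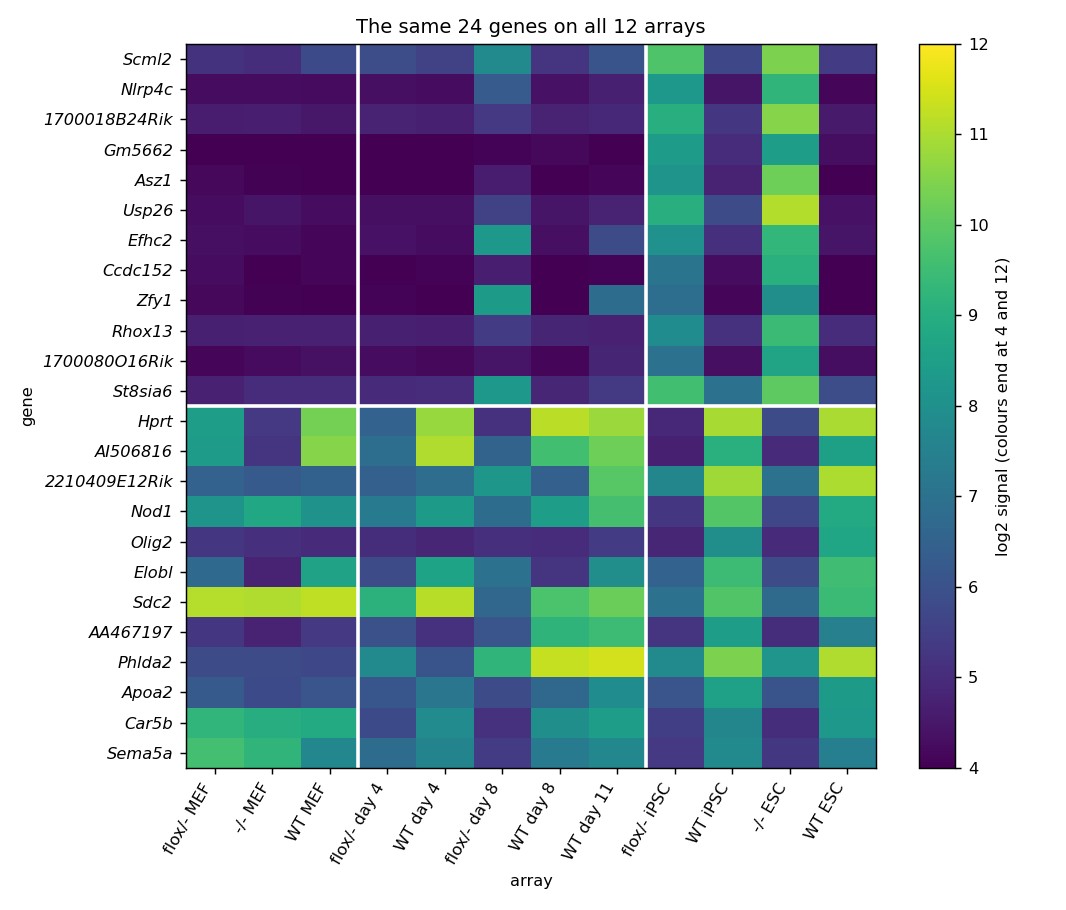
Log2 signal (colour, from 4 to 12) of the 24 genes with the widest gaps on all 12 arrays, with MEF on the left, DOX-treated cells in the middle and pluripotent lines on the right. Hprt is dark in flox/- day 8, flox/- iPSC, -/- MEF and -/- ESC, and Efhc2, Zfy1 and St8sia6 are also above 8 in flox/- day 8.

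Chromosomes 6 and 8 held the widest deviations among the autosomes. On chromosome 6 the median gene of -/- ESC lay 0.186 above the mean of the 4 arrays, while flox/- iPSC was at -0.0533, WT iPSC at -0.0812 and WT ESC at -0.0545. On that chromosome 30.7% of genes were separated above and 12.4% below, against 18.6% and 23.9% of all kept genes. On chromosome 8 -/- ESC was at 0.0982 and flox/- iPSC at -0.112, against 0.113 in WT iPSC and -0.0742 in WT ESC. The other 17 autosomes ranged from -0.0926 to 0.106, and copy number was not measured. Around Mbd3 116 genes were kept within 2 Mb, of which 9 were above and 34 below, 0 of them by at least 1. Their median was -0.16. Of all kept genes 18.6% were above and 23.9% below, with a median of -0.03.

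**Figure D5:**
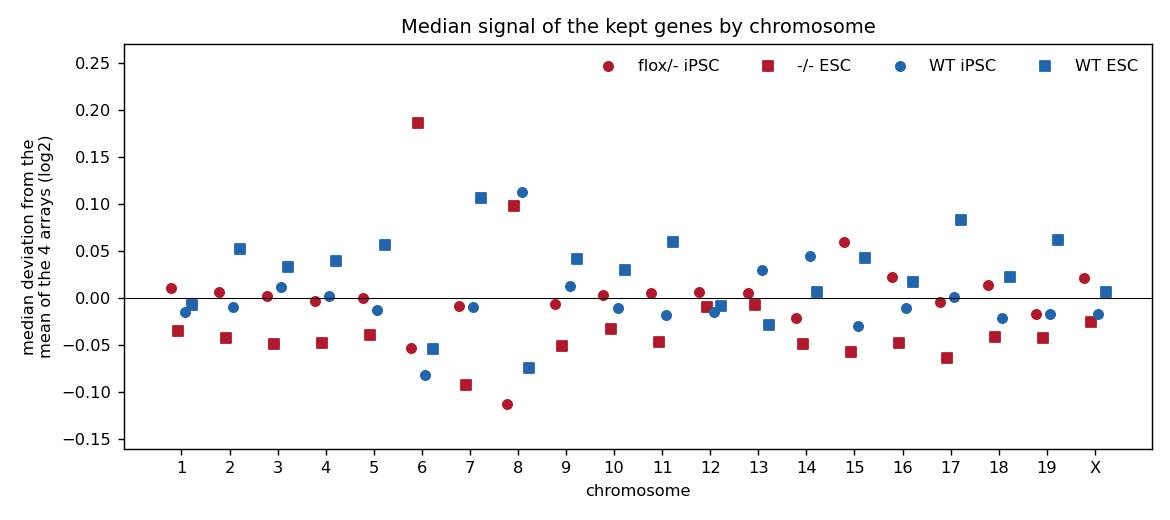
Median log2 deviation of each array from the mean of the 4 pluripotent arrays, for chromosomes 1 to 19 and X, over the kept genes. The -/- ESC point on chromosome 6 (0.186) is the highest of the plot, and chromosome 8 splits the lines within each genotype.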

How the data were processed

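RNA of 4 pluripotent lines (flox/- iPSC, -/- ESC, WT iPSC and WT ESC, 1 array each), with 8 further arrays as background, was measured. Per the labels' protocols, RNA was extracted with TRIzol and biotin-labelled from 250 ng total RNA with a kit for 3' arrays, whereas the annotation of the probe sets names a whole-transcript gene array. The deposited values are log2 signals from 3.11 to 13.99 for 35512 probe sets. How the arrays were summarised and normalized is not given in the sources used here, and 0 columns were left out. Array signals have no depth, and the number of arrays limits the precision.

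The medians of the 12 arrays differed by 0.122, over the limit of 0.1 chosen for this step, so the values were quantile normalized. Of 23410 annotated probe sets 21789 had 1 symbol, 1621 had several and were left out, and 12102 were not listed and unnamed. Entrez identifiers linked 21698 to RefSeq (GRCm38.p6), with 0 symbols replaced. Of 19938 genes, 999 with several probe sets took the one with the highest mean, and 13044 above the array median on at least 1 array were kept.

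The 2 mutated arrays were compared with the 2 WT arrays by limma 3.58.1 in R 4.3.3, adjusted by Benjamini-Hochberg over all kept genes and called under 0.05. Errors are SE of the fit or SD over arrays. The fit was tested on simulated data. The 27 lists with 668 entries, and the members, were chosen with earlier results of these data known. Named genes are Mbd3, the 12 widest gaps in each direction, up to 4 separated members of each list by size of difference and the defining markers, and the others named were chosen after their values were seen. The alternatives were the deposited values, 2 other filters, the median over probe sets, each array left out, cell type as a block, a fit with MEF, and moderation with trend and robust settings. Leaving out MEF-high genes and using WT day 11 in place of WT day 8 were chosen after seeing the data.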

Additional observations from a re-analysis of the deposited data

How the results depend on the processing

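No gene was called (0) with the deposited values, without a filter, with the mean of the 4 arrays as the filter, with the median over probe sets, with trend and robust moderation, or with cell type as a block, where the smallest adjusted p ran from 0.0696 to 0.275 and 1089 to 1802 genes had an unadjusted p under 0.05. The labels carry no replicate numbers, and the fit with cell type as a block, which pairs the lines by type, gave a smallest adjusted p of 0.0714. The 7-array fit with MEF called 29. Leaving out each array in turn called 0 to 38, where the 38 (32 higher and 6 lower) came without flox/- iPSC, the lone mutated array being assumed to vary like the WT pair. Of these 38, 35 were separated and 31 by at least 1, and 5 were shared with the 29. The same leave-outs gave 8528 to 10144 separated genes and 363 to 577 separated by at least 1, since 1 array on a side separates more easily. The count by at least 1 was 109 without the genes higher in MEF, and between 137 and 185 with the other scaling, filters and probe set rule. With the mean of the 4 arrays as the filter it was 137, with 54 higher in place of 86 and 83 lower in place of 95. The share of lower genes also lower at day 8 was 95.8% with WT day 11 in place of WT day 8. Without the genes higher in MEF the shares of lower genes also lower were 52% in MEF, 60% at day 4 and 60% at day 8. Of the named genes, 1285 values kept their direction and side of the threshold, 29 passed the threshold and 0 reversed, and 24 of 243 list medians moved by more than the spread allowed, the germline median staying between 1.27 and 2.08. Signal near the background limits the folds of genes whose lower side lies below the array median.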

Other observations

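Values outside the main comparison include those of the DOX series for the lower genes. AI506816 was at 6.90 in flox/- day 4 and 6.54 in flox/- day 8 cells, against 9.58 to 11.05 in the 3 DOX-treated WT arrays. Hprt was at 6.51 in flox/- day 4 and 5.15 in flox/- day 8 cells, against 10.76 to 11.17 in the 3 DOX-treated WT arrays. For both genes every mutated array of the 12 lay below every WT array. Cyp4a12b, a cytochrome of fatty acid hydroxylation, was higher in both mutated MEF arrays, at 7.57 in flox/- and 9.02 in -/-, against 4.22 in WT, with the pluripotent lines alike at 7.41 in flox/- iPSC and 8.77 in -/- ESC, against 4.57 in WT iPSC and 5.2 in WT ESC. At day 4 its values were 4.43 in flox/- and 4.42 in WT cells. Hhip, an antagonist of Hedgehog ligands, was at 9.34 in flox/- day 4 cells, against 6.10 in WT day 4 cells.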
